A study of Mus musculus with 40 samples.

Results

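Banp, Cecr2, Slc43a1, Pnrc1, Vgll4, Crebrf, Zfp949 and Tmem140 are 8 of the 23621 genes measured in mouse skeletal muscle. They were picked because their messenger RNA response 3 h after a treadmill run differed most between a run begun at ZT0 and a run begun at ZT12 (zeitgeber time, in hours, where ZT0 is lights on and ZT12 is lights off). All 8 passed the filter on low counts, which left 15097 genes in quadriceps and 14523 in gastrocnemius. Every level in those +3h libraries and in their sedentary controls took part in the choice, so these levels are described here without a test. Tests are given for the libraries taken right after the run, for the sedentary libraries that go with them, and for the gastrocnemius libraries of other mice.

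All mice were C57BL/6, of an age and sex that the labels used here do not state. Quadriceps came from 8 groups of 3 libraries. Sedentary mice were sampled at ZT0, ZT4, ZT12 and ZT16, and mice run to exhaustion on a treadmill in a ZT0 or a ZT12 session were sampled right after the run (+0h, labelled ZT0.5 and ZT12.5) or later (+3h, labelled ZT3.5 and ZT15.5). Gastrocnemius came from 4 groups of 4 libraries from mice with a running wheel open during the night or during the day, each sampled at ZT4 and at ZT16. No gastrocnemius of mice without a wheel was analysed here, so the wheel groups are compared with each other only.

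The 8 genes have no shared pathway. Banp encodes a DNA-binding protein that recognises an unmethylated palindrome in CpG-island promoters. Cecr2 encodes a bromodomain protein that pairs with an ISWI chromatin remodeller, and Zfp949 encodes a zinc finger protein. Pnrc1 encodes a nuclear receptor coactivator, Vgll4 a cofactor that competes with YAP for TEAD transcription factors, and Crebrf a nuclear factor that represses CREB3 and lowers glucocorticoid receptor protein. Slc43a1 encodes the L-type amino acid transporter LAT3, which carries branched-chain and other large neutral amino acids, and Tmem140 encodes a transmembrane protein of little-described function. Skeletal muscle has a clock of its own, in which CLOCK and BMAL1 bind E-boxes, and a run by a nocturnal animal at lights on falls at the opposite end of its daily rhythm from a run at lights off.

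In GRCm38.p6, Banp (gene ID 53325) lies at chr8:121947972-122029260 on the plus strand and Cecr2 (330409) at chr6:120666314-120771191 on the plus strand. Slc43a1 (72401) lies at chr2:84838855-84863586 on the plus strand and Pnrc1 (108767) at chr4:33245423-33248787 on the minus strand. Vgll4 (232334) lies at chr6:114860621-114970007 on the minus strand and Crebrf (77128) at chr17:26715594-26776637 on the plus strand. Zfp949 (71640) lies at chr9:88548020-88571086 on the plus strand and Tmem140 (68487) at chr6:34863146-34874946 on the plus strand. In GENCODE M21, Banp overlaps the large gene model Gm20388 on its own strand and Gm27011, a long noncoding RNA, on the other, and Tmem140 overlaps Cyren on the other strand. The library kit keeps strand, but the sources used here give no strand setting for the counting, so reads from such partners may not be separated.

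RefSeq upstream windows of 250 bases were at hand for 6 of the 8 genes, and are shown because each was searched for the motifs of clock and exercise-responsive factors on both strands. The E-box CACGTG was present upstream of Slc43a1, Vgll4 and Crebrf, which is 3 of the 6 genes against 6.02% of all 32851 windows. The windows of those 3 genes hold 24, 28 and 26 CpG dinucleotides, against a median of 6, and among the 5896 windows with at least 20 the share with an E-box was 10.1%; this finer background was chosen after the matches were seen. Below, capitals mark CACGTG in stretches of 30 bases, read 5′ to 3′ on the gene's strand, and positions count back from the annotated start used by the table.
Slc43a1 -64: agggtctccctcCACGTGgcagccgtggga
Vgll4 -59: aaatgccgtgtcCACGTGccccctgccgct
Crebrf -125: cccctctggtgtCACGTGacgggcgctagc
Crebrf -14: cctcctcgccgcggccCACGTGaggggggc
These stretches are chr2:84840247-84840276, chr6:114969245-114969274, chr17:26715513-26715542 and chr17:26715620-26715649. The starts used for Slc43a1, Vgll4 and Crebrf lie inside the span of the gene, after the start of a longer transcript, and 124 of the 250 bases before the Slc43a1 start are exon in GENCODE.

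The whole window before the Tmem140 start, chr6:34862896-34863145, is given because Tmem140 had the highest +3h fold change of the 8 genes. Capitals mark its match to the FOXO motif GTAAACA, which reads TGTTTAC on the gene's strand, begins at -116 and occurs in 3.17% of all windows.
Tmem140: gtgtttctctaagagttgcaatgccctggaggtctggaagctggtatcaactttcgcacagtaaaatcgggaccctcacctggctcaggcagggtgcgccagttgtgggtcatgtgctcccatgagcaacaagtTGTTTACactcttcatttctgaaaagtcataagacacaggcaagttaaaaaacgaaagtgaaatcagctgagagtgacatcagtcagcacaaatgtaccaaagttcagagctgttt
The glucocorticoid receptor half-site AGAACA was found before Pnrc1 (16.1% of all windows), the TEAD motif CATTCC before Slc43a1 and Vgll4 (12.6%), the RORE core AGGTCA before Pnrc1 (14.0%) and the CRE half-site TGACG before Crebrf (17.8%), where it overlaps the E-box at -125. The CCAAT box was found before Slc43a1, Pnrc1 and Crebrf (33.8%). The D-box TTATGTAA (0.819%), the full CRE TGACGTCA (1.55%), the full glucocorticoid receptor site (0.00913%) and the BANP palindrome (0.39%) were in none of the 6 windows. These are letter matches and say nothing of binding.

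**Figure D1:**
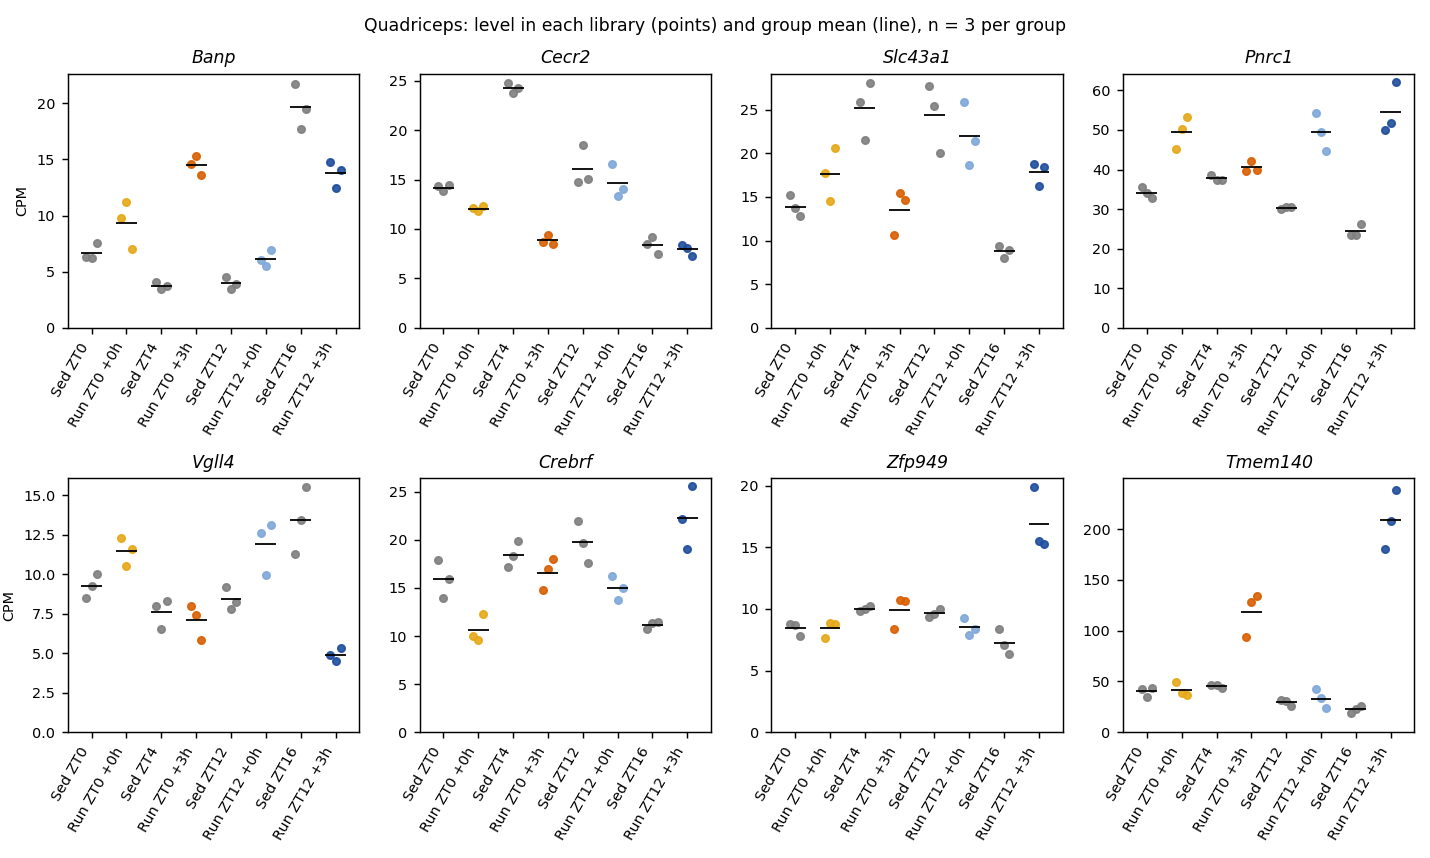
Level of each of the 8 genes (y axis, CPM) in each quadriceps library (points) with the group mean (line), n = 3 in each of 8 groups. Grey points are sedentary, yellow and orange are +0h and +3h after the ZT0 session, light and dark blue are +0h and +3h after the ZT12 session. Banp in sedentary muscle runs from 3.41 CPM at ZT4 to 21.7 CPM at ZT16, while both +3h groups lie between 12.46 and 15.3 CPM.

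For Banp, the runners of both sessions held nearly the same level at +3h, which lies above the sedentary level of ZT4 and below that of ZT16. Levels are in CPM, the share of a library's counts scaled by its TMM-adjusted size. At ZT4 the sedentary libraries held 4.09, 3.41 and 3.75 CPM, and 3 h after the ZT0 session the runners held 14.6, 15.3 and 13.6 CPM. At ZT16 the sedentary libraries held 21.7, 17.7 and 19.5 CPM, and 3 h after the ZT12 session the runners held 14.8, 12.46 and 14.1 CPM. The exercised groups overlap each other, the sedentary groups are far apart, and neither exercised group overlaps its own control. Within each session Banp was higher at +3h than at +0h, by 0.63 ± 0.14 in the ZT0 and 1.17 ± 0.14 in the ZT12 session. On the log2 scale Banp was higher by 1.95 ± 0.14 (SE) after the ZT0 session and lower, at -0.51 ± 0.13, after the ZT12 session. The difference of these responses (ZT12 minus ZT0) was -2.46. Between the sessions the exercised groups differed by -0.07 and the sedentary groups (ZT16 minus ZT4) by 2.39, which enters with the opposite sign. In bulk muscle, fewer cells of a type and less RNA per cell cannot be told apart, here and in what follows.

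Cecr2 went the other way from Banp between the sedentary groups and after the ZT0 session, but not after the ZT12 session. Sedentary libraries held 24.8, 23.8 and 24.3 CPM at ZT4 and 8.52, 9.20 and 7.45 CPM at ZT16. After exercise the values were 8.70, 9.41 and 8.48 CPM in the ZT0 session and 8.42, 8.09 and 7.30 CPM in the ZT12 session. Only the sedentary ZT4 libraries stand high, and the +3h runners of the ZT12 session overlap their control. The response was -1.45 ± 0.09 in the ZT0 session and -0.08 ± 0.09 in the ZT12 session. The exercised groups differed by -0.16 and the sedentary groups by -1.53.

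Slc43a1, the amino acid transporter, also had its widest gap between sedentary groups. It held 25.9, 21.5 and 28.1 CPM at ZT4 and 9.40, 8.03 and 8.96 CPM at ZT16 in sedentary muscle. The runners held 10.6, 15.4 and 14.6 CPM after the ZT0 session and 18.8, 16.3 and 18.4 CPM after the ZT12 session. No pair of these 4 groups overlaps, and the order of the sessions in exercised muscle is the reverse of that in their controls. The response was -0.89 ± 0.16 in the ZT0 session and 1.02 ± 0.16 in the ZT12 session.

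Tmem140 had the highest response of the 8. In the ZT0 session the level was 93.5, 128 and 134 CPM against 46.0, 46.0 and 43.2 CPM in sedentary muscle, a log2 difference of 1.39 ± 0.19. In the ZT12 session it was 180, 208 and 239 CPM against 19.1, 23.0 and 25.6 CPM, a log2 difference of 3.21 ± 0.20. Exercised muscle was higher in both sessions, and exercised groups differed by 0.82 and sedentary groups by -1.0, so both contribute to the difference of 1.82. Cyren, which overlaps Tmem140 on the other strand, was looked up after the overlap was seen and differed by -0.35 ± 0.13 in the ZT12 session (edgeR adjusted p = 0.083).

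Zfp949 stood apart in 1 group. The 3 runners of the ZT12 session held 19.9, 15.53 and 15.3 CPM, and the other 21 quadriceps libraries lie below them. Its sedentary libraries held 8.34, 7.05 and 6.31 CPM at ZT16 and 9.80, 9.99 and 10.2 CPM at ZT4, and runners of the ZT0 session held 8.34, 10.7 and 10.6 CPM. The response was 1.23 ± 0.11 in the ZT12 session and -0.02 ± 0.11 in the ZT0 session. Here the exercised groups differed more, by 0.77, than the sedentary groups did, at -0.47.

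Among the transcriptional cofactors, Pnrc1 held 49.9, 51.7 and 62.2 CPM after the ZT12 session against 23.4, 23.5 and 26.3 CPM at sedentary ZT16, a response of 1.16 ± 0.08. After the ZT0 session it held 39.7, 42.2 and 39.8 CPM against 38.5, 37.3 and 37.4 CPM at sedentary ZT4, a response of 0.10 ± 0.08. The exercised groups do not overlap and neither do the controls. Crebrf held 22.2, 19.1 and 25.6 CPM after the ZT12 session against 10.7, 11.4 and 11.5 CPM in its control, a response of 0.99 ± 0.12. After the ZT0 session it held 14.8, 17.0 and 18.0 CPM against 17.2, 18.3 and 19.9 CPM, which overlap, a response of -0.15 ± 0.12. Vgll4 went the other way, with 4.87, 4.51 and 5.34 CPM after the ZT12 session against 11.3, 13.4 and 15.47 CPM in its control, a response of -1.45 ± 0.14. After the ZT0 session Vgll4 held 7.99, 7.41 and 5.82 CPM against 7.95, 6.54 and 8.27 CPM, which overlap, a response of -0.10 ± 0.13. The runners of the ZT12 session hold the 3 lowest Vgll4 values of all 24 quadriceps libraries.

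As the rule fixes, all 8 genes pass the threshold for the difference of the +3h responses, which 1.59% of the 15097 genes tested passed. The same libraries give 4 of the 8 past it for the +3h response of the ZT0 session (13.6% of all genes), 7 of 8 for that of the ZT12 session (17.2%) and 8 of 8 for sedentary ZT16 against ZT4 (7.16%). None of these counts is evidence, since the genes were chosen on them. The 8 are not the strict top of that ranking: by p in the fit they take ranks 1 to 5, 8, 10 and 13. Between them rank Zfp142 (-0.98), Zfp874a (1.06), Noxred1 (-2.40), Rbm5 (-0.50) and Cpt1a (1.09), which were not listed and are named here after their values were seen. The last listed gene, Tmem140 at rank 13, had a difference of 1.82, and the next gene, the clock output gene Dbp at rank 14, had 1.35.

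**Figure D2:**
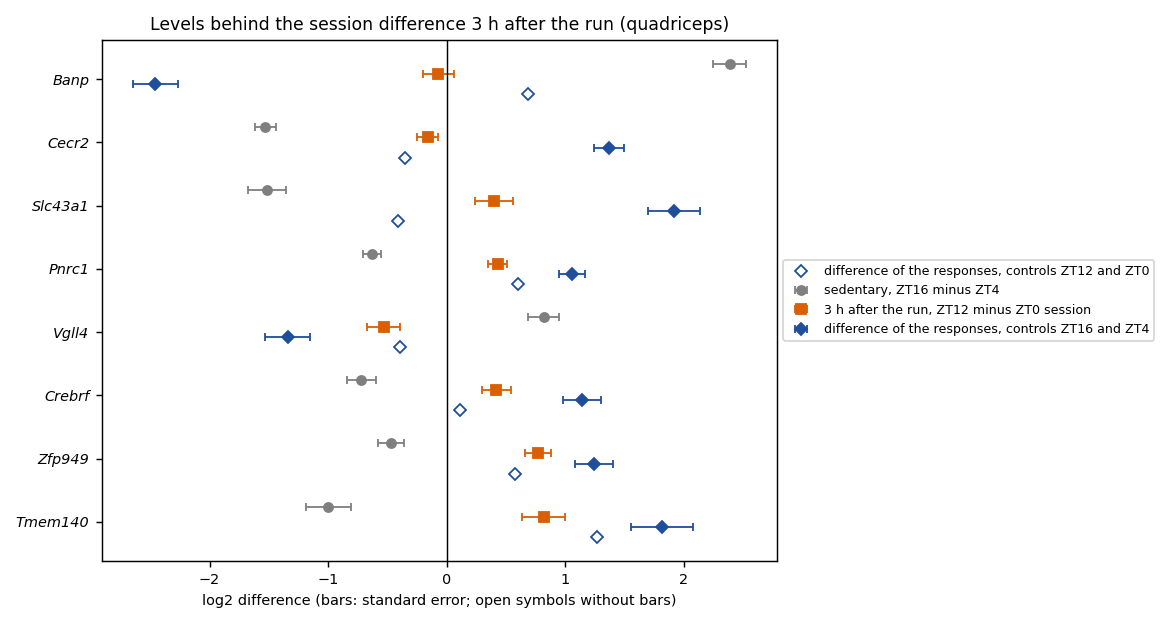
Log2 differences (x axis) for each gene in quadriceps: sedentary ZT16 minus ZT4 (grey circles), runners 3 h after the ZT12 session minus runners 3 h after the ZT0 session (orange squares), and the difference of the responses with ZT16 and ZT4 controls (filled blue diamonds) or with ZT12 and ZT0 controls (open blue diamonds). Bars are standard errors, which the open symbols lack. For Banp, Cecr2 and Slc43a1 the open and filled diamonds lie on opposite sides of 0.

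With the other sedentary control the estimate has the opposite sign for 3 of the 8 genes. The runners sampled at ZT3.5 and ZT15.5 have their nearest controls at ZT4 and ZT16, and sedentary muscle from the start of the session (ZT0 and ZT12) is the other control in the design. With the latter, the difference of the responses became 0.69 for Banp, -0.35 for Cecr2 and -0.41 for Slc43a1, each of the opposite sign and none past the threshold. It became 0.60 for Pnrc1, -0.39 for Vgll4, 0.11 for Crebrf, 0.58 for Zfp949 and 1.27 for Tmem140, each of the same sign and smaller. Pnrc1 and Tmem140 passed, against 201 of the 15097 genes tested. Banp was then higher after exercise in both sessions, by 1.12 at ZT0 and 1.80 at ZT12, and Cecr2 was lower in both, at -0.68 and -1.02. Slc43a1 differed by -0.04 and -0.45 against these controls, and Tmem140 by 1.56 and 2.83. The exercised libraries are the same under both controls. They took part in the choice of the genes, so the calls given here are a description and not evidence.

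At the end of the run, Pnrc1 rose in both sessions, Banp rose in both by less, and Crebrf fell in the ZT0 session. Pnrc1 held 45.1, 50.2 and 53.4 CPM right after the ZT0 session against 35.7, 34.1 and 32.7 CPM in sedentary muscle at ZT0. After the ZT12 session it held 54.3, 49.4 and 44.6 CPM against 29.97, 30.5 and 30.4 CPM at ZT12. Runners and controls do not overlap in either session. Pnrc1 rose by 0.54 ± 0.08 (SE) on the log2 scale in the ZT0 session (edgeR adjusted p = 4e-04) and by 0.71 ± 0.08 in the ZT12 session (edgeR adjusted p = 2.9e-05), and neither call was lost when any 1 library was left out.

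Crebrf held 9.97, 9.59 and 12.3 CPM right after the ZT0 session against 17.9, 14.0 and 15.9 CPM at sedentary ZT0. The groups do not overlap, and Crebrf fell by 0.59 ± 0.12 (edgeR adjusted p = 0.004), a call that held without any 1 library. After the ZT12 session it held 16.3, 13.8 and 15.02 CPM against 22.0, 19.7 and 17.6 CPM at sedentary ZT12. These groups do not overlap either, and the log2 difference was -0.39 ± 0.12 (edgeR adjusted p = 0.061). That value passed the threshold without sedentary ZT12 replicate 3 (-0.47) and by DESeq2 (-0.39). At +3h the Crebrf level was above that at +0h in both sessions, by 0.66 and 0.57. Among the runners the lower level was thus found at the end of the run and not 3 h later. Sedentary ZT16 muscle, at 10.7 to 11.5 CPM, overlaps the runners right after the ZT0 session.

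Banp held 9.75, 11.2 and 6.997 CPM right after the ZT0 session against 6.29, 6.24 and 7.57 CPM at sedentary ZT0, and the lowest runner overlaps the controls. After the ZT12 session it held 6.00, 5.52 and 6.91 CPM against 4.51, 3.46 and 3.91 CPM at sedentary ZT12, with no overlap. Banp rose by 0.48 ± 0.14 in the ZT0 session (edgeR adjusted p = 0.039) and by 0.63 ± 0.14 in the ZT12 session (edgeR adjusted p = 0.011). The ZT0 call was lost without sedentary ZT0 replicate 1 (0.44) or 2 (0.43), without +0h ZT0 replicate 1 (0.45) or 2 (0.34), and with only the libraries compared in the fit. The ZT12 call was lost without sedentary ZT12 replicate 2 (0.55) or +0h ZT12 replicate 3 (0.54).

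Vgll4 held 12.6, 9.92 and 13.1 CPM right after the ZT12 session against 9.16, 7.82 and 8.24 CPM at sedentary ZT12, without overlap, and rose by 0.49 ± 0.13 (edgeR adjusted p = 0.035). That call was lost when any 1 of sedentary ZT12 replicates 1 (0.56), 2 (0.45) and 3 (0.48) or +0h ZT12 replicates 1 (0.45) and 3 (0.42) was left out. It was also lost in 1 of 5 fits with other settings (0.50). In the ZT0 session Vgll4 held 12.3, 10.5 and 11.6 CPM against 8.51, 9.24 and 10.03 CPM, a difference of 0.31 ± 0.13 (edgeR adjusted p = 0.17). The order within the runners then turned: Vgll4 at +3h was below its level at +0h by 0.70 ± 0.14 in the ZT0 session and by 1.27 ± 0.14 in the ZT12 session, which is given without a test.

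**Figure D3:**
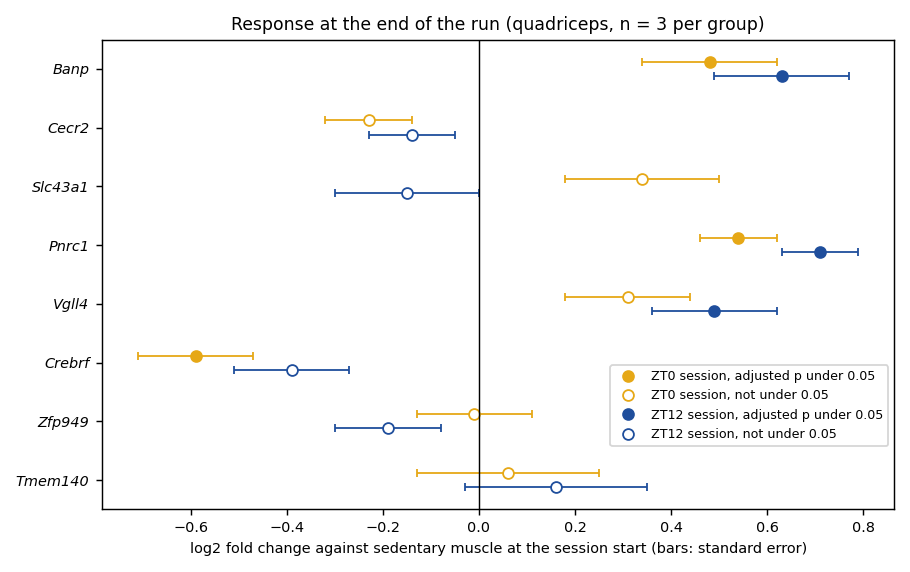
Log2 fold change (x axis) of each gene right after the run against sedentary quadriceps at the start of the session, for the ZT0 (yellow) and ZT12 (blue) sessions, n = 3 per group. Bars are standard errors, and filled symbols mark an adjusted p under 0.05. Pnrc1 is filled in both sessions at 0.54 and 0.71, Crebrf lies below 0 in both, and Tmem140 lies near 0 in both.

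Cecr2, Slc43a1, Zfp949 and Tmem140 did not pass at the end of either run. Their log2 differences ran from -0.23 (Cecr2) to 0.34 (Slc43a1) in the ZT0 session and from -0.19 (Zfp949) to 0.16 (Tmem140) in the ZT12 session. Tmem140, which held 49.9, 38.9 and 37.0 CPM right after the ZT0 session and 42.4, 33.2 and 23.4 CPM right after the ZT12 session, overlaps its sedentary controls of 43.0, 34.3 and 43.4 CPM and of 31.6, 31.1 and 25.7 CPM. Its high level was thus found in the +3h libraries alone among the quadriceps groups. In all, 3 of the 8 genes passed in the ZT0 session, against 6.82% of all genes tested, and 3 of 8 in the ZT12 session, against 4.6%. Right after the ZT12 session the summed fast-fibre markers were 200000 to 209000 CPM against 161000 to 180000 CPM in sedentary ZT12, and erythroid markers 224 to 328 CPM against 188 to 218 CPM. Right after the ZT0 session, macrophage markers were 68.1 to 83.9 CPM against 51.0 to 59.4 CPM in sedentary ZT0, and endothelial markers 199 to 210 CPM against 226 to 271 CPM. Neutrophil markers, 1 of 4 at 0, were 0.957 to 1.13 CPM against 0.329 to 0.358 CPM. These groups do not overlap, and the part of the markers in the +0h results was not tested.

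The +0h responses of the 8 genes were not shown to differ between the sessions. The difference (ZT12 minus ZT0) ran from -0.48 ± 0.22 for Slc43a1 to 0.20 ± 0.17 for Crebrf, and the lowest edgeR adjusted p among the 8 was 0.37, for Slc43a1. For Pnrc1 it was 0.17 ± 0.11 and for Banp 0.15 ± 0.20. Over all genes edgeR called 0, that is 0% of 15097, while 1912 had an unadjusted p under 0.05, among them 1 of the 8 (Slc43a1), and DESeq2 called 16 genes, none of them among the 8.

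Between the sedentary groups at the start of the sessions, Banp fell and Slc43a1 rose from ZT0 to ZT12. Banp held 6.29, 6.24 and 7.57 CPM at ZT0 and 4.51, 3.46 and 3.91 CPM at ZT12, a fall of 0.76 ± 0.14 on the log2 scale (edgeR adjusted p = 0.0013). Slc43a1 held 15.2, 13.7 and 12.8 CPM at ZT0 and 27.7, 25.4 and 20 CPM at ZT12, a rise of 0.81 ± 0.16 (edgeR adjusted p = 0.0019). Neither pair of groups overlaps, and both calls held without any 1 library. The other 6 genes did not pass, and the 2 of 8 that did stand against 16.1% of all genes tested. Crebrf, at 0.31 ± 0.12 (edgeR adjusted p = 0.072), passed without sedentary ZT0 replicate 1 (0.40) or without sedentary ZT12 replicate 3 (0.39). These sedentary libraries are also the controls of the +0h responses, so the comparisons are not independent.

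Over the 4 sedentary times, the order of the means from low to high was ZT4, ZT12, ZT0 and ZT16 for Banp, at 3.75, 3.96, 6.70 and 19.7 CPM, of which ZT4 and ZT12 overlap. For Cecr2 it was ZT16, ZT0, ZT12 and ZT4, at 8.39, 14.2, 16.1 and 24.3 CPM, with no overlap between neighbours. Slc43a1 was lowest at ZT16 (8.80 CPM), then ZT0 (13.9 CPM), and ZT12 and ZT4 overlap at 24.4 and 25.2 CPM. Pnrc1 ran through ZT16, ZT12, ZT0 and ZT4 at 24.4, 30.3, 34.2 and 37.7 CPM, and Tmem140 through the same order at 22.6, 29.5, 40.2 and 45.1 CPM, of which ZT0 and ZT4 overlap. At ZT16 the means were 13.4 CPM for Vgll4, 11.2 CPM for Crebrf and 7.23 CPM for Zfp949, whose ZT16 libraries overlap those of ZT0. The ZT4 and ZT16 libraries took part in the choice of the genes, so this order is partly fixed by it.

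**Figure D4:**
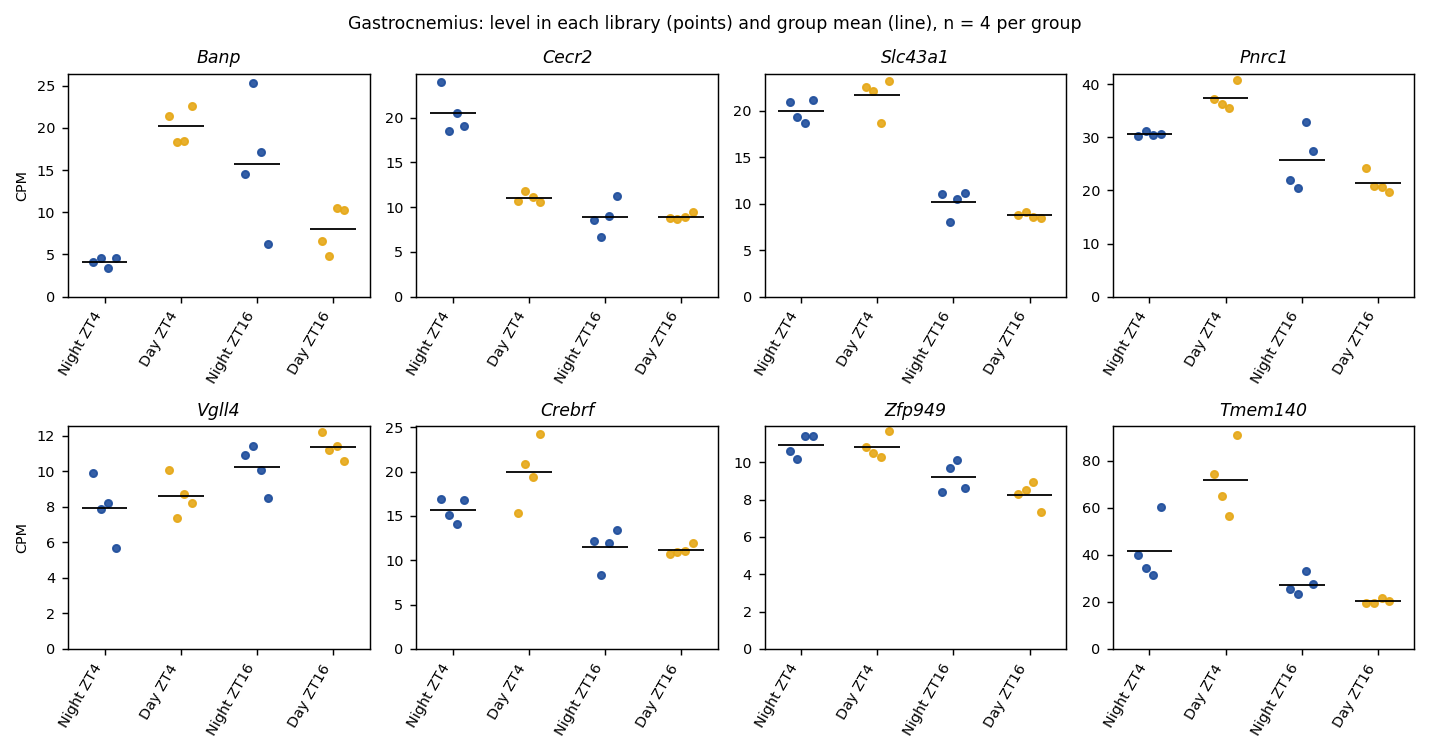
Level of each of the 8 genes (y axis, CPM) in each gastrocnemius library (points) with the group mean (line), n = 4 per group, for mice with a wheel open at night (blue) or by day (yellow), sampled at ZT4 and ZT16. Banp is low at ZT4 in night-wheel mice, at 3.43 to 4.53 CPM, and high at ZT4 in day-wheel mice, at 18.3 to 22.6 CPM.

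In gastrocnemius at ZT4, Banp was higher and Cecr2 lower in mice with the wheel open by day than in mice with the wheel open at night. Banp held 4.10, 4.53, 3.43 and 4.53 CPM at ZT4 in night-wheel mice and 21.4, 18.3, 18.5 and 22.6 CPM in day-wheel mice. Cecr2 held 24.04, 18.5, 20.5 and 19.1 CPM in the former and 10.7, 11.8, 11.1 and 10.6 CPM in the latter. Neither gene's groups overlap. Banp was higher by 2.28 ± 0.37 (edgeR adjusted p = 0.002) and Cecr2 was lower, at -0.89 ± 0.11 (edgeR adjusted p = 0.00013), and both calls held without any 1 library.

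Tmem140 was the third gene past the threshold at ZT4. It held 39.98, 34.3, 31.5 and 60.2 CPM in night-wheel mice and 74.2, 65.0, 56.6 and 90.9 CPM in day-wheel mice. The groups overlap through the night-wheel library at 60.2 CPM, and the difference was 0.78 ± 0.20 (edgeR adjusted p = 0.02). The call was lost without night-wheel ZT4 replicate 2 (0.70) or 3 (0.67), without day-wheel ZT4 replicate 4 (0.65), and with only the libraries compared in the fit. Pnrc1 held 30.2, 31.2, 30.5 and 30.6 CPM against 37.3, 36.3, 35.6 and 40.9 CPM, without overlap, at 0.29 ± 0.11 (edgeR adjusted p = 0.1), and passed by DESeq2 (0.30) and with only the libraries compared (0.29). Crebrf, at 0.35 ± 0.14 (edgeR adjusted p = 0.11), passed without day-wheel ZT4 replicate 1 (0.46), while Slc43a1, Vgll4 and Zfp949 lay between -0.02 and 0.12. The 3 of 8 past the threshold stand against 13.1% of the 14523 genes tested. At ZT4 the summed endothelial markers were 217 to 235 CPM in night-wheel and 175 to 199 CPM in day-wheel mice, and adipocyte markers were 368 to 463 and 486 to 555 CPM. Both differ without overlap, all 5 and all 8 markers being above 0, and their part in the results at ZT4 was not tested.

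At ZT16 none of the 8 passed between the wheel schedules by edgeR or DESeq2, where edgeR called 0.565% of all genes. At an unadjusted p under 0.05 in the edgeR fit, 3 of the 8 passed, namely Banp, Slc43a1 and Pnrc1, as did 1942 of all 14523 genes. Banp held 14.5, 25.3, 17.1 and 6.18 CPM in night-wheel mice and 6.55, 4.76, 10.5 and 10.3 CPM in day-wheel mice. Night-wheel replicate 4 lies among the day-wheel libraries, and the difference of -0.96 ± 0.35 (edgeR adjusted p = 0.24) became -1.24 and passed without it. Without night-wheel replicate 2 the difference was -0.63. For Cecr2 the groups overlap, at 8.56, 6.601, 8.99 and 11.2 CPM against 8.80, 8.70, 8.86 and 9.42 CPM.

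Between ZT4 and ZT16, Banp moved in opposite directions under the wheel schedules. It rose by 1.92 ± 0.37 in night-wheel mice (edgeR adjusted p = 0.0031) and fell by 1.32 ± 0.35 in day-wheel mice (edgeR adjusted p = 0.022), and neither pair of groups overlaps. The difference of the time effects (day minus night) was -3.24 ± 0.51 (edgeR adjusted p = 0.0017), which held without any 1 library. The fall in day-wheel mice alone lost its call without day-wheel ZT4 replicate 4 (-1.27), or day-wheel ZT16 replicate 1 (-1.24) or 2 (-1.14). A replicate block also lost that call (-1.33). Sedentary quadriceps, from other mice, differed by 2.39 between the same hours.

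Cecr2 fell by 1.21 ± 0.11 from ZT4 to ZT16 in night-wheel mice (edgeR adjusted p = 1.7e-06), and its difference in day-wheel mice was -0.30 ± 0.12 (edgeR adjusted p = 0.089). The difference of the time effects was 0.91 ± 0.16 (edgeR adjusted p = 0.0019) and held without any 1 library. The single high group was ZT4 in night-wheel mice. The day-wheel value passed with only the libraries compared in the fit (-0.31), and the ZT4 and ZT16 groups do not overlap there.

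Slc43a1 fell from ZT4 to ZT16 under both schedules. Night-wheel mice held 20.9, 19.3, 18.7 and 21.2 CPM at ZT4 and 11, 7.98, 10.5 and 11.2 CPM at ZT16. Day-wheel mice held 22.6, 22.1, 18.7 and 23.2 CPM at ZT4 and 8.76, 9.13, 8.53 and 8.51 CPM at ZT16. ZT4 and ZT16 do not overlap under either schedule, and Slc43a1 fell by 0.98 ± 0.09 (edgeR adjusted p = 4.7e-07) and by 1.31 ± 0.09 (edgeR adjusted p = 3e-08). The difference of these effects was -0.33 ± 0.12 (edgeR adjusted p = 0.099), and it passed without day-wheel ZT4 replicate 3 (-0.40) or night-wheel ZT16 replicate 2 (-0.44).

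Tmem140 fell from ZT4 to ZT16 by 1.82 ± 0.20 in day-wheel mice (edgeR adjusted p = 7.1e-05), where the ZT16 libraries held 19.7, 19.4, 21.8 and 20.2 CPM. In night-wheel mice, with 25.3, 23.2, 33.2 and 27.6 CPM at ZT16, the groups overlap and it fell by 0.61 ± 0.20 (edgeR adjusted p = 0.049). That night-wheel call was lost without ZT4 replicate 1 (-0.63) or 4 (-0.37), without ZT16 replicate 1 (-0.58), 2 (-0.54) or 4 (-0.61), with no filter on low counts, and with only the libraries compared. The effects differed by -1.21 ± 0.28 (edgeR adjusted p = 0.017), which held without any 1 library.

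Of the transcriptional cofactors, Pnrc1 fell from ZT4 to ZT16 by 0.81 ± 0.11 in day-wheel mice (edgeR adjusted p = 0.00024), to 24.3, 20.8, 20.7 and 19.7 CPM at ZT16, and differed by -0.26 ± 0.11 in night-wheel mice (edgeR adjusted p = 0.14), where ZT16 held 22.0, 20.4, 32.9 and 27.4 CPM. The night-wheel value passed without ZT16 replicate 3 (-0.39) and was -0.16 without ZT16 replicate 2. In night-wheel mice the summed adipocyte markers were 594 to 652 CPM at ZT16 against 368 to 463 CPM at ZT4, endothelial markers 162 to 206 against 217 to 235 CPM and fibroblast markers 520 to 660 against 684 to 883 CPM. Macrophage, neutrophil and satellite cell sums also differed without overlap between these times, none of the marker sums did so in day-wheel mice, and their part in the time differences was not tested. The difference of the effects for Pnrc1 was -0.56 ± 0.16 (edgeR adjusted p = 0.041), and this call was lost without any 1 of 12 of the 16 libraries, at -0.58 to -0.51: all 8 ZT4 libraries, night-wheel ZT16 replicate 4 and day-wheel ZT16 replicates 2, 3 and 4. Crebrf fell under both schedules, by 0.45 ± 0.14 at night (edgeR adjusted p = 0.034) and by 0.84 ± 0.14 by day (edgeR adjusted p = 8e-04). The night call was lost without ZT4 replicate 1 (-0.42), 2 (-0.47) or 4 (-0.42), without ZT16 replicate 1 (-0.49), 2 (-0.33) or 3 (-0.47), and with no filter. Its difference of effects, -0.39 ± 0.20 (edgeR adjusted p = 0.25), passed without night-wheel ZT16 replicate 2 (-0.52).

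Zfp949 fell by 0.25 ± 0.07 in night-wheel mice (edgeR adjusted p = 0.022) and by 0.39 ± 0.07 in day-wheel mice (edgeR adjusted p = 0.0014). The night call was lost without ZT4 replicate 3 (-0.23) or 4 (-0.23), or ZT16 replicate 1 (-0.21) or 4 (-0.22). Vgll4, at 0.38 ± 0.14 (edgeR adjusted p = 0.067) and 0.40 ± 0.14 (edgeR adjusted p = 0.056), was on the far side of the threshold under both schedules. It passed at night without ZT4 replicate 1 (0.50) or ZT16 replicate 4 (0.46), by day without ZT4 replicate 1 (0.49), and by DESeq2 under both. It also passed by day with only the libraries compared in the fit (0.40). Without night-wheel ZT4 replicate 4 the night value was 0.24.

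In all, 6 of the 8 genes passed from ZT4 to ZT16 in night-wheel mice (18.8% of all genes did), 6 of 8 in day-wheel mice (14.9%), and 4 of 8 for the difference of the effects (9.74%). At a given hour the schedules also differ in the time since the wheel was last open, and this cannot be told apart from the schedule itself.

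The 8 genes formed no single pattern over the libraries. Across the 24 quadriceps libraries Banp and Cecr2 had a Pearson correlation of log2 CPM of -0.92, and across the 16 gastrocnemius libraries of -0.67. Vgll4 ran against Zfp949 (-0.88 and -0.65) and against Tmem140 (-0.82 and -0.66), while Zfp949 and Tmem140 ran together (0.79 and 0.80). Slc43a1 and Tmem140 had 0.07 in quadriceps and 0.89 in gastrocnemius. The quadriceps and gastrocnemius libraries differ in muscle, mice, kind of exercise and hours sampled, which cannot be told apart here. These coefficients are descriptions over libraries that share groups, and carry no p.

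Genes most like each of the 8 were taken among 10978 with an average log2 CPM of at least 1, by the correlation over the quadriceps libraries. Tmem140 had the closest, with Flcn, which encodes folliculin, a regulator of nutrient signalling at the lysosome (0.96 in quadriceps, 0.94 in gastrocnemius), and Trim63, which encodes the muscle ubiquitin ligase MuRF1 (0.95 and 0.90). Flcn averaged 130 ± 14.9 CPM (SD) at 3 h after the ZT12 session and 57 ± 1.77 CPM at sedentary ZT16. Trim63 averaged 1990 ± 683 CPM and 170 ± 26.5 CPM in the same groups, n = 3 each. After the ZT0 session Flcn averaged 123 ± 19.2 CPM at +3h, against 76.2 ± 3.89 CPM at sedentary ZT4. Trim63 averaged 1260 ± 122 CPM against 259 ± 44.1 CPM there. Both genes were picked by correlation over libraries that include these groups, so sharing the high +3h groups with Tmem140 follows from the pick.

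For Banp the nearest were Kansl3, a subunit of a histone acetyltransferase complex (0.88 in quadriceps, 0.56 in gastrocnemius), and Slc9a3r2, a scaffold protein (0.86 and 0.89). Slc9a3r2 followed Banp through the wheel groups, with 24.9 ± 2.31 CPM at ZT4 in night-wheel mice and 47.3 ± 0.643 CPM in day-wheel mice (SD, n = 4). For Cecr2 they were Tnrc6a (0.88 and 0.08), of the microRNA silencing complex, and Kdm3b (0.87 and 0.76), a histone demethylase, so the first of these did not follow Cecr2 in gastrocnemius. For Pnrc1 they were Fam83d (0.88 and 0.86) and Emd (0.86 and 0.48), for Vgll4 Crk (0.87 and 0.70) and Cdc42ep3 (0.86 and 0.73), and for Slc43a1 Ubxn7 (0.86 and 0.56) and Pdcd4 (0.83 and 0.65). Crebrf was most like Cir1 (0.87 and 0.64) and E130102H24Rik (0.87 and 0.80). Zfp949 was most like the zinc finger gene Zfp874a (0.85 and 0.73) and Isy1, whose coefficient turned from 0.84 to -0.63 in gastrocnemius.

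Genes related to the listed genes other than Tmem140 were followed through 7 lists. Their counts stand against 6.82% of all genes past the threshold at +0h in the ZT0 session and 4.6% in the ZT12 session. Among 20 amino acid transporters related to Slc43a1, 2 rose and none fell right after the ZT0 session, near the share of all genes, and 3 rose and none fell right after the ZT12 session. The median log2 change was 0.17 and 0.05, against a median over all genes at 0. Slc7a1, a cationic amino acid transporter, rose in both (0.89 ± 0.21, edgeR adjusted p = 0.012, and 0.75 ± 0.21, edgeR adjusted p = 0.045). Slc3a2, the heavy chain that L-type transporters of the SLC7 family need, rose in the ZT0 session (0.51 ± 0.07, edgeR adjusted p = 0.00014). Slc38a2 (1.10 ± 0.25, edgeR adjusted p = 0.014) and Slc7a8 (0.63 ± 0.18, edgeR adjusted p = 0.047) rose in the ZT12 session. For the difference of the +3h responses, 1 of the 20 passed, against 1.59% of all genes. This was the taurine transporter gene Slc6a6, at -0.54 ± 0.11 (edgeR adjusted p = 0.012).

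For Crebrf, 15 of 16 listed genes around CREB3 factors, cyclic AMP response and the glucocorticoid receptor were tested. Of these, 4 rose and none fell right after the ZT0 session (6.82% of all genes passed), and 2 rose and none fell right after the ZT12 session (4.6%). In the ZT0 session the clock gene Per1 rose by 3.43 ± 0.40 (edgeR adjusted p = 1e-04), the glucocorticoid-induced gene Tsc22d3 by 1.24 ± 0.18 (edgeR adjusted p = 0.00047) and Crem, a cyclic AMP response factor, by 0.99 ± 0.16 (edgeR adjusted p = 0.00084). In the ZT12 session Crem rose by 1.02 ± 0.17 (edgeR adjusted p = 0.00077) and Tsc22d3 by 0.66 ± 0.18 (edgeR adjusted p = 0.04). For the difference of the +3h responses, Sgk1, a kinase gene induced by glucocorticoids, was the 1 gene past the threshold, at 1.42 ± 0.27 (edgeR adjusted p = 0.0098). Over all genes 1.59% passed for that difference. Crebrf fell right after the ZT0 session and did not pass right after the ZT12 session. A link between Crebrf and these genes was not tested. The list's median change was 0.14 and 0.16 in the +0h responses.

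The list of 23 TEAD and Hippo genes around Vgll4 had 2 that rose and none that fell in each +0h response, close to the share of all genes (6.82% in the ZT0 and 4.6% in the ZT12 session). They were the TEAD target Ccn2 (1.47 ± 0.42, edgeR adjusted p = 0.042, and 1.59 ± 0.42, edgeR adjusted p = 0.036) and the kinase gene Lats2 (0.21 ± 0.06, edgeR adjusted p = 0.038, and 0.27 ± 0.06, edgeR adjusted p = 0.01). Lats2 was also the 1 gene past the threshold for the difference of the +3h responses (-0.37 ± 0.09, edgeR adjusted p = 0.033). Over all genes 1.59% passed for that difference. Of 18 coregulator and decapping genes around Pnrc1, Nrip1 rose (0.81 ± 0.19, edgeR adjusted p = 0.014) and Pnrc2 fell by 0.24 ± 0.06 (edgeR adjusted p = 0.014) in the ZT0 session. In the ZT12 session Pnrc2 alone passed and fell by 0.29 ± 0.06 (edgeR adjusted p = 0.0044), while Pnrc1 itself rose in both. The median changes at +0h in the ZT0 and ZT12 sessions were -0.00 and 0.09 for the TEAD and Hippo genes and -0.02 and 0.03 for the coregulator and decapping genes.

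For the chromatin proteins, 1 of 18 ISWI genes rose and none fell in each +0h response, near the share of all genes (6.82% and 4.6%), namely Baz1a (0.56 ± 0.15 in both, edgeR adjusted p = 0.03 and 0.038). Baz1b was the 1 gene of that list past the threshold for the difference of the +3h responses (-0.31 ± 0.07, edgeR adjusted p = 0.023). Of 21 CpG-island and BEN-domain genes, Btg3 (0.93 ± 0.21, edgeR adjusted p = 0.009), whose protein gave Banp its name, and Nacc1 (0.21 ± 0.06, edgeR adjusted p = 0.028) rose in the ZT0 session. Nacc1 (-0.33 ± 0.08, edgeR adjusted p = 0.041) and Nacc2 (-0.45 ± 0.11, edgeR adjusted p = 0.043) passed for the difference of the +3h responses. For that difference, 1 of 18 ISWI genes and 2 of 21 CpG-island genes stand against 1.59% of all genes. Of 16 genes of KRAB zinc finger silencing, Trim28 alone passed in the ZT0 session, at 0.18 ± 0.05 (edgeR adjusted p = 0.034), so the CpG-island and KRAB counts are also near the 6.82% of all genes. The median changes at +0h in the ZT0 and ZT12 sessions were -0.01 and 0.03 for the ISWI genes, 0.02 and 0.05 for the CpG-island genes and -0.10 and -0.03 for the KRAB genes. Apart from Slc43a1's and Crebrf's lists, no list had more than 2 members past the threshold in either +0h response.

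Library totals ran from 27352875 to 79491649 counts in quadriceps and from 45010256 to 70033483 in gastrocnemius, and the lowest count of any of the 8 genes in a library was 161. Markers of fast fibres summed to between 137000 and 209000 CPM in every group and those of slow fibres to between 21.4 and 1870 CPM. Summed adipocyte markers, of which all 8 were above 0 in every group, were higher at +3h than in the nearest sedentary group in both sessions: 1010 to 1240 CPM against 638 to 804 CPM in the ZT0 session, and 1330 to 2070 CPM against 767 to 1020 CPM in the ZT12 session. At +3h in the ZT12 session, other sums also differed from sedentary ZT16 without overlap. Fast-fibre markers (178000 to 201000 against 144000 to 168000 CPM) and endothelial markers (218 to 240 against 194 to 213 CPM) were higher. Neutrophil markers were higher too (0.299 to 3.06 against 0.0325 to 0.16 CPM), and satellite cell markers were lower (3.5 to 4.1 against 4.24 to 5.42 CPM). Endothelial markers, 5 of 5 above 0, were lower in sedentary muscle at ZT12 (145 to 189 CPM) than at ZT0 (226 to 271 CPM). So were neutrophil markers (0.112 to 0.186 against 0.329 to 0.358 CPM). Fast-fibre markers (161000 to 180000 against 137000 to 156000 CPM) and adipocyte markers (955 to 2990 against 483 to 899 CPM) were higher at ZT12. Sedentary muscle at ZT16 had lower endothelial markers than at ZT4, without overlap (194 to 213 against 214 to 259 CPM). Its neutrophil markers were lower too, also without overlap (0.0325 to 0.16 against 0.163 to 0.581 CPM). The part of these cells in the results for the 8 genes was not tested. Satellite cell markers stayed between 2.77 and 7.32 CPM, and neutrophil markers at or below 3.06 CPM, with 1 of 4 at 0 in 7 of the 12 groups.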

How the data were processed

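Messenger RNA was measured by sequencing in 24 quadriceps and 16 gastrocnemius libraries, made with a stranded polyA kit per the labels' protocols. The authors deposited estimated counts per gene for each of 2 lanes (80 columns). The submitters' processing notes name kallisto 0.46.2, bcl2fastq 2.20.0.422, DESeq2 1.26.0 and the builds mm10 and GRCm38.p6; the gene summing and the strand setting are not given in the sources used here.

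Lanes were summed and rounded to whole numbers. Of 23621 rows, 23614 matched a RefSeq symbol. The main test was the robust quasi-likelihood test of edgeR 4.0.16 (R 4.3.3, with limma 3.58.1) after TMM scaling and a minimum count of 10, in 1 fit per muscle with a mean per group, Benjamini-Hochberg adjustment over all genes tested and a threshold of 0.05. Differences are log2 values with SE. The alternatives were DESeq2 1.42.0, RLE factors, no filter, replicate block, only the libraries compared, sedentary muscle from the session start as control, and each library left out. The 8 genes and the related lists were chosen with earlier results of these data known. Named genes are the 8, for each the 2 most correlated genes, up to 3 genes per related list with the smallest p past the threshold, and the gene ranked next after the 8.

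The description tag differs for every library, read here as separate animals; if that is wrong, p-values measure technical spread. No 2 libraries of a group were alike within sampling noise (lowest chi-square per degree of freedom 6.18). Replicate numbers were not taken to pair the samples, since not every same-numbered pair of libraries correlated. The fit was tested on simulated counts. For the +0h response of the ZT0 session, 69% of 2-fold and 83% of 3-fold changes were recovered, with 5 false calls. For ZT16 against ZT4 in night-wheel mice the shares were 86% and 98%, with 12 false calls. Promoter sequences are RefSeq's, GRCm38.p6.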

Additional observations from a re-analysis of the deposited data

Results flagged for a closer look

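In none of 32 groups of 4 gastrocnemius values did the gap of the highest or lowest library to its neighbour pass Dixon's critical value, which single low or high values such as Banp in night-wheel ZT16 replicate 4 (6.18 CPM) also did not. The time effects (ZT16 against ZT4) of 4 of the 8 genes differed between day and night wheel access, by the edgeR test of the difference itself. The difference (day minus night) was -3.24 for Banp, which was higher at ZT16 in night-wheel mice and lower at ZT16 in day-wheel mice. It was 0.91 for Cecr2, which fell by 1.21 in night-wheel mice and differed by -0.30 in day-wheel mice, and -1.21 for Tmem140, which fell by more in day-wheel mice. It was -0.56 for Pnrc1, a call that most single libraries could undo.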

How the results depend on the processing

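With sedentary muscle from the session start as control, 2 of the 8 genes, not 8, passed for the difference of the +3h responses. Of all 15097 genes tested, 201 passed there. The difference of the +3h responses then took the opposite sign for Banp (0.69), Cecr2 (-0.35) and Slc43a1 (-0.41), as did the +3h response of the ZT12 session for Banp (1.80) and Slc43a1 (-0.45). The exercised libraries stay the same, and only the sedentary libraries set against them differ. The exercised libraries took part in the choice of the genes, so the counts of 2 and 8 are not evidence. With 1 library left out, the number of the 8 past the threshold ran from 1 to 3 for the +0h response of the ZT12 session, from 3 to 6 for ZT16 against ZT4 in night-wheel mice and from 0 to 1 for day against night wheel at ZT16; these fits have fewer samples. Of 976 alternative values of single genes in the tested comparisons, 901 kept their side of the threshold, 53 lost and 22 gained the call, and no called value changed sign. Values near 0 that were not called could change sign, such as Tmem140 in the +0h response of the ZT0 session (0.06, down to -0.08 with 1 library left out).

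Over all genes, the calls for the difference of the +3h responses ran from 113 to 448 over the fits with other settings, against 240. Those settings include the fit to only the libraries compared. With 1 library left out, the calls ran from 107 to 235. For the difference of the +0h responses they ran from 0 to 322 with 1 left out. For day against night wheel at ZT16, with 82 calls, they ran from 35 to 369 and from 19 to 163. For the +0h responses, with 1029 calls in the ZT0 and 695 in the ZT12 session, the lowest counts were 390 and 380. For sedentary ZT12 against ZT0, with 2436, and for ZT16 against ZT4, with 1081, the lowest were 1283 and 588, and for day against night wheel at ZT4, with 1907, it was 1139. For the +3h responses, with 2052 and 2602, the lowest were 1105 and 1724. The cause was not tested.

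A replicate block moved the calls of the 8 genes from 3 to 4 in the +0h response of the ZT12 session (Crebrf, -0.40), from 6 to 7 in night-wheel mice and from 4 to 3 for the difference of the time effects, where Pnrc1 dropped out. In day-wheel mice the block lost Banp (-1.33), gained Vgll4 and left 6. The correlation of same-numbered libraries averaged -0.00 over 84 pairs in quadriceps (-0.47 to 0.36) and 0.01 over 24 pairs in gastrocnemius (-0.14 to 0.15). The numbers were therefore not taken as pairs. In quadriceps 8 of 24 and in gastrocnemius 10 of 16 libraries correlated best with their own number. With 3 numbers in quadriceps and 4 in gastrocnemius, some such matches arise without pairing. The gastrocnemius count is the higher against that share, a hint from the data and not from the design.

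Each of the 8 genes had at least 161 counts in every library, and groups held 3 or 4 libraries.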
